A study of Mus musculus with 16 samples.

Results

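The transcripts of Ba/F3 cells were measured 2 h after FOXO4 was switched on with 4-hydroxytamoxifen (4-OHT), on the 4 arrays of the series' 16 whose label gives the FOXO4 line at 2 h. The arrays were chosen by that label alone. Ba/F3 is a mouse pro-B cell line that needs interleukin-3 (IL-3) to grow, and the culture medium held recombinant mouse IL-3. The cells stably expressed FOXO4(A3)-ER, a fusion of a FOXO4 form called A3 in the labels with an oestrogen receptor domain that responds to 4-OHT. They were 1 clonal line made by limited dilution under G418 after electroporation of the plasmid pcDNA3-HA-FOXO4(A3)-ER, so an effect of FOXO4 and a property of that clone cannot be told apart. Each array set the RNA of 1 culture treated for 2 h against a pool of the same line's cells at time 0. Treated RNA was in Cy3 on replicates 1 and 3 and in Cy5 on replicates 2 and 4, and the series design describes the 4 replicates of a time point as independent. The arrays used for comparison were the 4 of the same line at 8 h, against the same pool, and the 4 of the line with FOXO3(A3)-ER at 2 h, against a pool of its own. Cells without a fusion protein and cells kept for 2 h without 4-OHT are not analysed here, so an effect of 4-OHT itself or of time in culture was not tested.

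FOXO proteins are forkhead transcription factors that act downstream of PI3K and PKB. When growth factors activate PKB, it phosphorylates FOXO proteins and they leave the nucleus; the A3 mutants lack the PKB sites, stay active in the presence of growth factor, and are held back here only by the receptor domain. In blood cells FOXO factors are known for slowing the cell cycle and for raising genes of apoptosis, stress resistance and autophagy, and the series title places the arrays in work on glutamine metabolism and on autophagy.

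Values are log2 ratios of cells at 2 h over the time 0 pool, as the mean of the 4 arrays ± SE of the limma fit, and p-values of that fit were adjusted by Benjamini-Hochberg over 17484 genes. A gene was called at an adjusted p under 0.05. The pool counts as 1 control sample, so the test leaves out the spread between time 0 cultures. The 4 arrays had median spot signals between 103.6 and 121.7 for Cy5 and between 144.3 and 151.9 for Cy3, against local backgrounds of 39 to 45, and 36.98% to 40.02% of gene probes lay above the 95th percentile of silent external control spots. A probe under that percentile is called dim below. The probe for Foxo4 was dim in both channels on 4 of 4 arrays, at -0.07 ± 0.04 (adjusted p = 0.46). The fusion is switched on by ligand rather than by transcription, and whether that probe detects its transcript was not tested. Foxo3 (0.01) and Foxo1 (-0.02) were dim as well and were not called.

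At 2 h 1538 of 17484 genes were called (8.8%), of which 592 were higher (3.39% of the genes tested) and 946 lower (5.41%). Most of these changes were small. The median absolute log2 ratio of the called genes was 0.239, 63 genes rose and 58 fell by at least 0.5, and 10 rose and 10 fell by at least 1. The balance between higher and lower calls depended on where ratios of equal abundance were placed. Centring each array on the 144 external control spots that gave signal put the median of all genes at -0.11, and the split was then 110 higher against 1094 lower. The 12 highest and the 12 lowest genes, described next, kept their calls under all 16 alternatives. They also kept them with this line's 2 h arrays of either dye orientation left out, in fits that still held the other groups' arrays. These genes were picked for large ratios of the same sign on every array, in both orientations. That choice itself favours kept calls, so their survival is no independent check.

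The rise was led by genes of protein ubiquitination, transcription and RNA processing. Fbxo30, an F-box subunit of SCF ubiquitin ligases that FOXO factors are known to induce in muscle, read 1.42, 1.46, 1.65 and 1.45 on replicates 1 to 4, and rose by 1.49 ± 0.06, or 2.82-fold (adjusted p = 1.47e-11, limma). The 4 values lay close together, while the pool signal was dim on 2 arrays. Rnf19b, a RING-type ubiquitin ligase, was as even over the arrays at 1.40, 1.40, 1.39 and 1.37, with a mean of 1.39 ± 0.06. Its other probes gave 1.46 and 1.21. Rnf125, another RING ligase with a role in T-cell activation, rose by 0.99 ± 0.07, with 0.92 and 0.35 on its other probes. The deubiquitinase gene Zranb1 read 1.15, 1.01, 0.79 and 0.96 and rose by 0.98 ± 0.05.

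Cited2 encodes a co-regulator that binds CBP and p300 and is a known FOXO target. On replicates 1 to 4 it read 1.13, 1.84, 1.32 and 1.45, and it rose by 1.44 ± 0.09 (adjusted p = 5.08e-09, limma). Klf6, a zinc-finger transcription factor, rose by 1.43 ± 0.08 with a wider spread of 1.29, 1.50, 0.93 and 2.02. Its pool signal was dim on 4 of 4 arrays and its treated signal on 1. With the pool set no lower than the silent control spots, the rise was at least 1.28-fold (adjusted p = 1.23e-09 in the limma fit), so its place among the highest genes rests on a signal within that of those spots. Noct, which encodes the rhythmically expressed NADP(H) phosphatase nocturnin, read 1.24, 1.61, 1.46 and 1.41 and rose by 1.43 ± 0.07. A dimmer Noct probe went the other way, at -0.29 ± 0.04, and the probes' transcripts were not compared here.

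Clk1, a kinase of the SR splicing factors, read 1.27, 0.90, 1.62 and 1.03 and rose by 1.21 ± 0.07. Cirbp, the cold-inducible RNA-binding protein, rose by 1.07 ± 0.04, from 0.87 on replicate 1 to 1.27 on replicate 4. Ccm2, a scaffold protein named for cerebral cavernous malformations, rose by 1.23 ± 0.05. The remaining genes among the highest were P2ry14, a receptor for UDP-sugars (1.01 ± 0.07), and Resf1, a retroelement silencing factor (1.00 ± 0.07; 0.84 on its other probe). P2ry14 read 0.79 and 0.66 on the arrays with treated RNA in Cy3 and 1.27 and 1.31 on those with it in Cy5, and Resf1 lay the other way round, at 1.11 and 1.25 against 0.85 and 0.79.

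**Figure D1:**
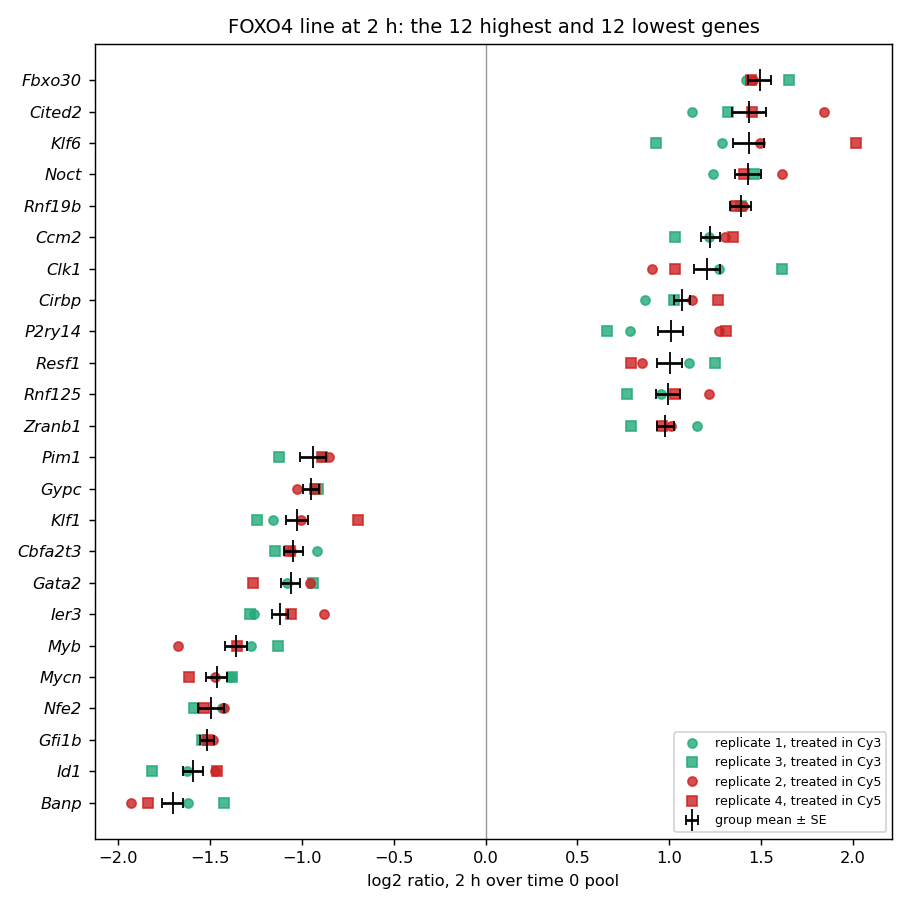
The log2 ratio of cells at 2 h over the time 0 pool (x axis) is plotted for the 12 highest and 12 lowest genes (y axis). Circles and squares are the 4 arrays, green for treated RNA in Cy3 and red for Cy5, and black marks are the group mean ± SE. The genes were picked for the same sign on 4 of 4 arrays, and Klf6, whose pool signal was dim, has the widest spread among the rising genes, from 0.93 to 2.02.

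The genes that fell most were for the larger part transcription factors of blood progenitors. Gfi1b, a zinc-finger repressor of the erythroid and megakaryocyte lineages, read -1.53, -1.48, -1.54 and -1.51, and its mean of -1.52 ± 0.04 had the smallest adjusted p of all genes named here (3.07e-14, limma). Nfe2, the p45 subunit of a bZIP factor of the same lineages, read -1.44, -1.42, -1.59 and -1.54 and fell by 1.50 ± 0.07. Mycn, a MYC family oncogene, stood at -1.46 ± 0.06. Myb, a factor that immature blood cells need to proliferate, read -1.28, -1.68, -1.13 and -1.35 and fell by 1.36 ± 0.06, with -0.83 and -0.05 on its other probes. Gata2, a factor of blood stem cells and mast cells, fell by 1.06 ± 0.05 and Cbfa2t3, a co-repressor that works with haematopoietic factors, by 1.05 ± 0.05. The 4 arrays lay between -1.27 and -0.94 for Gata2 and between -1.14 and -0.92 for Cbfa2t3. Klf1, the erythroid Krüppel-like factor, stood at -1.02 ± 0.06, and its probe was dim in treated cells on 4 of 4 arrays, which gave a fall of at least 1.40-fold. In RNA from whole cultures, less transcript per cell and fewer cells that carry it cannot be told apart.

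Banp, which encodes a DNA-binding nuclear protein, had the lowest ratio. It read -1.62, -1.93, -1.43 and -1.84 and fell by 1.70 ± 0.06, a fold change of 3.26 (adjusted p = 1.17e-12, limma). Id1, which holds helix-loop-helix factors inactive and is known to be repressed by FOXO factors, read -1.62, -1.47, -1.82 and -1.46, with a mean of -1.60 ± 0.05. The IL-3-induced survival gene Ier3 stood at -1.12 ± 0.04, and the kinase gene Pim1, a STAT5 target that promotes survival, at -0.94 ± 0.07. Pim1 read -0.89, -0.85, -1.12 and -0.89. Gypc, glycophorin C of the cell membrane, fell by 0.95 ± 0.04, with its arrays between -1.03 and -0.91.

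Dye orientation was the main source of spread between the 4 arrays. Over genes, the log2 ratios correlated at 0.86 between replicates 1 and 3 and at 0.81 between replicates 2 and 4, which share an orientation, but at -0.59 to -0.53 between arrays of opposite orientation. These are correlations across genes, which are not independent replicates. After the dye term of the other 12 arrays was taken off each gene, the correlations were 0.58 and 0.48 within orientations and 0.19 to 0.34 between them. Of the 1538 called genes 405 higher and 648 lower ones had the same sign on 4 of 4 arrays, and with that dye term taken off 1429 had. Both orientations carry equal weight in each mean. Ulk1, a kinase that starts autophagy, shows why this matters: it read -0.60 and -0.60 with treated RNA in Cy3 and 0.73 and 0.68 with it in Cy5, and its mean was 0.05 ± 0.05 (adjusted p = 0.753).

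**Figure D2:**
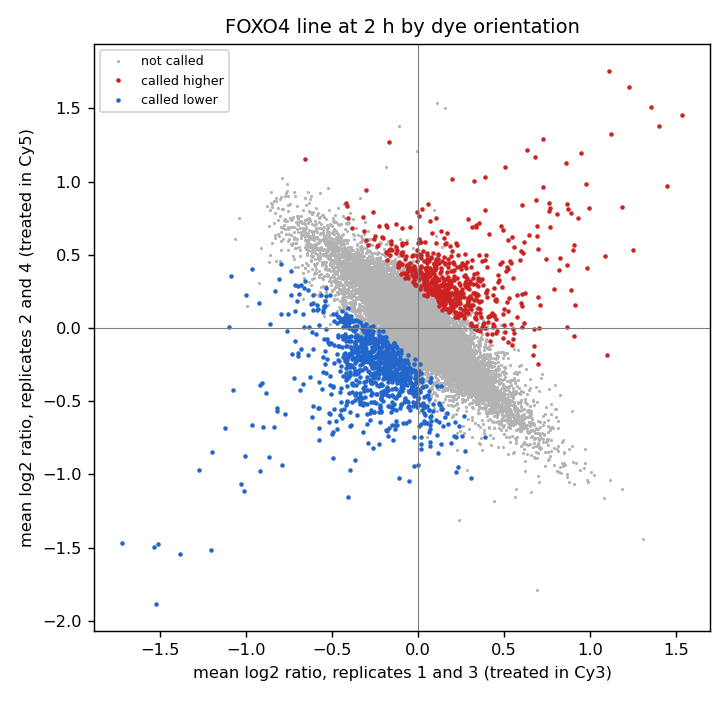
Each point is a gene, with its mean log2 ratio on replicates 1 and 3 (treated RNA in Cy3, x axis) against that on replicates 2 and 4 (treated in Cy5, y axis). Grey genes were not called and spread along the falling diagonal, while genes called higher (592, red) and lower (946, blue) lie on either side of it, with the genes of largest ratio in the upper right and lower left corners.

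Genes that FOXO factors are known to induce rose more often than genes in general, but most did not pass the test at 2 h. Of 48 measured, 12 rose (25%, against 3.39% of all genes), 2 fell (4.17%, against 5.41%) and 34 were not called. Their median was 0.05 against -0.0031 for all genes. This list and those below were written with earlier results of these data known, so their shares are descriptions and no independent support. Members of a list beyond the 4 of smallest adjusted p were named after their values were seen. Fbxo30, Klf6 and Cited2 led. Sesn1, a stress-induced brake on mTORC1, read 0.78, 0.91, 0.96 and 0.72 and rose by 0.84 ± 0.07 (adjusted p = 1.2e-07, limma). Gadd45a, a growth arrest and DNA damage gene, rose by 0.89 ± 0.10, with 1.17 and 1.32 in one orientation and 0.51 and 0.57 in the other. Pik3ip1, an inhibitor of PI3K, rose by 0.22 ± 0.05 on a dim probe, and that call was lost without replicate 2 (0.17) or 4 (0.19). The 2 that fell were Cdkn1a, the p21 inhibitor of cyclin-dependent kinases (-0.79 ± 0.05), and Bbc3, the pro-apoptotic PUMA gene (-0.44 ± 0.06). Several well-known targets did not pass: Bcl2l11, the pro-apoptotic BIM gene, was at 0.10 ± 0.06 (adjusted p = 0.466), the p27 gene Cdkn1b at 0.16 ± 0.06 (adjusted p = 0.0979), Bcl6 at 0.00 and the insulin receptor substrate gene Irs2 at -0.03. Cdkn1b was called under 2 of the 15 alternatives that measured it, with median centring and with the log2 ratios deposited by the authors. Bcl2l11, Cdkn1b and Bcl6 were dim in both channels on 4 of 4 arrays, as were 26 of the 48 genes, which limits what these probes can show.

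Of 8 genes that FOXO factors are known to repress 4 fell (50%, against 5.41% of all genes) and 0 rose, with a median of -0.29. They were Id1, Pim1, Myc and Id2, another inhibitor of helix-loop-helix factors (-0.55 ± 0.05, and at least 1.24-fold lower by the same bound, since its probe was dim in treated cells on 4 of 4 arrays). Myc, the growth-promoting transcription factor, read -0.93 and -0.83 with treated RNA in Cy3 and -0.48 and -0.41 with it in Cy5, and fell by 0.66 ± 0.05 (adjusted p = 1.74e-08, limma). The D-type cyclin genes of that list, which carry cells out of G1, were not called, with Ccnd1 at -0.02 on a dim probe and Ccnd2 at -0.03. A dimmer Ccnd2 probe gave -0.34, and with the mean over its probes (-0.18), 1 of 16 alternatives, Ccnd2 was called. In the Myc network 3 of 12 genes fell (25%, against 5.41% of all genes) and 1 rose (8.33%, against 3.39%). Beside Myc and Mycn, the MAX-like partner gene Mlx stood at -0.41 ± 0.04, and Mxi1, a MAX-binding antagonist of MYC, rose by 0.36 ± 0.05. The call of Mlx was lost without the dye term (adjusted p = 0.0922) and that of Mxi1 with centring on the control spots (0.25, adjusted p = 0.0673).

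IL-3 and STAT5 targets fell more often than they rose. Of 26, 9 fell (34.6%, against 5.41% of all genes), 2 rose (7.69%, against 3.39%) and 15 were not called, although their median was only -0.02. Besides Id1, Ier3, Myc and Pim1 the genes that fell included Cish, a feedback inhibitor of STAT5 signalling. It read -1.06, -0.35, -1.09 and -0.49 and fell by 0.75 ± 0.05. The list of immediate early and ERK-dependent genes shares members with this one. Of its 29 genes 7 fell (24.1%, against 5.41% of all genes), 2 rose (6.9%, against 3.39%) and 20 were not called. Ets2, an ETS transcription factor, fell by 0.90 ± 0.04. Ier5 (-0.38 ± 0.04) and the AP-1 subunit gene Fosl1 (-0.39 ± 0.07) fell by less, and the Fosl1 call was lost without the dye term (adjusted p = 0.385). The 2 that rose, in both lists, were the ERK feedback inhibitor genes Dusp6 (0.23 ± 0.05) and Spred1 (0.32 ± 0.09), and both calls were lost without replicate 3 (0.20 and 0.25) or 4 (0.20 and 0.24).

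All 10 of the 29 haematopoietic transcription factor genes that were called were lower (34.5%, against 5.41% of all genes), and 19 were not called. The list holds Gfi1b, Nfe2, Mycn, Myb, Gata2, Cbfa2t3 and Klf1. The 3 others were Lyl1, a helix-loop-helix factor of early blood cells (-0.81 ± 0.09), Gata1, the erythroid and mast cell factor (-0.53 ± 0.04), and Tal1 (-0.20 ± 0.05). Lyl1 and Gata1 kept their calls under every alternative tried, and Tal1 was not called without replicate 2 (-0.21), 3 (-0.15) or 4 (-0.21). Among 13 genes of the KLF family Klf6 rose, Klf1 and Klf10, a gene induced by TGF-beta (-0.42 ± 0.06), fell, and 10 were not called. The shares were 7.69% higher and 15.4% lower, against 3.39% and 5.41% of all genes.

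Among splicing factors and their kinases more rose than fell, and most were not called. Of 31 genes 9 rose (29%, against 3.39% of all genes), 1 fell (3.23%, against 5.41%) and 21 were not called. The median was 0.04 and no member was dim throughout. Beside Clk1 and Cirbp, Hnrnpdl, an RNA-binding protein that regulates splicing, read 0.71, 0.73, 0.83 and 0.91 and rose by 0.79 ± 0.05. The SR protein genes Srsf5 (0.59 ± 0.06) and Srsf6 (0.47 ± 0.05) rose on all 4 arrays, between 0.37 and 0.91 for the former and between 0.36 and 0.56 for the latter. The member that fell was Srsf11 (-0.32 ± 0.04). Of 29 ubiquitin ligase and deubiquitinase genes 5 rose (17.2%, against 3.39% of all genes) and 0 fell. Fbxo30, Rnf19b and Zranb1 led, and these 3 are among the 12 highest genes described above. The other 2 moved by far less: Rnf4, a SUMO-targeted ligase, at 0.20 ± 0.05, whose call was lost without replicate 2 (0.12), and Marchf3, a membrane-associated ligase, at 0.19 ± 0.05, whose call was lost without replicate 1 (0.19) or 2 (0.12). The 3 other Marchf3 probes gave 0.03, -0.04 and -0.02, and the mean over its probes was 0.04 (adjusted p = 0.603).

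Among chaperone genes more fell than rose, and most were not called. Of 19 heat shock chaperone genes 7 fell (36.8%, against 5.41% of all genes), 1 rose (5.26%, against 3.39%) and 11 were not called, and the median was -0.11. Dnajb1, an HSP40 co-chaperone, read -0.98, -0.73, -0.70 and -0.63 and fell by 0.76 ± 0.06. Hsph1, an HSP110 protein, fell by 0.58 ± 0.05, Chordc1, an HSP90 co-chaperone, by 0.46 ± 0.05, and Ahsa1, an activator of HSP90, by 0.23 ± 0.04. The member that rose was the small heat shock protein gene Hspb1 (0.17 ± 0.05), which was not called without replicate 1 (0.18), 2 (0.17) or 4 (0.11). The calls of Chordc1 and Ahsa1 were lost without the dye term. Of 24 unfolded protein response and endoplasmic reticulum genes 6 fell (25%) and 0 rose, with a median of -0.07. Hspa5, the BiP chaperone, was at -0.42 ± 0.06 and Herpud1, a component of ER-associated degradation, at -0.29 ± 0.04. Pdia6, a disulfide isomerase (-0.19 ± 0.04), lost its call without replicate 1 (-0.14), and Xbp1, a transcription factor of the response (-0.24 ± 0.06), without replicate 2 (-0.22) or 4 (-0.20). A dimmer Xbp1 probe gave 0.10, and the mean over probes, -0.07, was not called.

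Amino acid and glutamine genes moved little at 2 h. Glul, the glutamine synthetase gene, read -0.07, -0.12, 0.04 and 0.12, on both sides of 0, and stood at -0.01 ± 0.05 (adjusted p = 0.977, limma). Of 28 genes of glutamine and glutamate metabolism 1 rose (3.57%, against 3.39% of all genes), 2 fell (7.14%, against 5.41%) and 25 were not called. No called change among them exceeded 0.21. The 3 were the GMP synthase gene Gmps (0.14 ± 0.03), the glutamine transporter gene Slc38a2 (-0.20 ± 0.04) and the CTP synthase gene Ctps (-0.21 ± 0.06); the Ctps call was lost without replicate 1, 2 or 3 (-0.22 to -0.19). Gmps was not called with median centring (0.13), with centring on the control spots (0.04), without the dye term or with the 4 arrays alone. The Slc38a2 call was lost with the mean over its probes (-0.10). The glutamine transporter gene Slc1a5 was at -0.04 and the asparagine synthetase gene Asns at 0.03. Of 21 amino acid transporter genes 2 fell (9.52%), Slc38a2 and Slc1a4, the latter on a dim probe at -0.23 ± 0.05 and not called without replicate 1 (-0.19). Of 37 tRNA synthetase genes and targets of ATF4, the factor of the amino acid response, 6 fell (16.2%), 0 rose and 31 were not called. They included the synthetase genes Iars (-0.26 ± 0.04), Yars (-0.35 ± 0.06) and Mars1 (-0.35 ± 0.07) and the mitochondrial folate gene Mthfd2 (-0.23 ± 0.05). The probes disagreed for Mars1, whose 3 others gave 0.04, 0.16 and 0.03, and the mean over probes ended the calls of Mars1 and Iars.

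Autophagy genes had 4 members higher (9.3%, against 3.39% of all genes), 1 lower (2.33%, against 5.41%) and 38 not called of 43, with a median of 0.04. The mitophagy receptor gene Fundc1 rose by 0.24 ± 0.05, the cargo receptor gene Sqstm1 by 0.30 ± 0.06 and Gabarapl1, an ATG8 family member, by 0.21 ± 0.04. Sqstm1 read 0.02 and 0.01 with treated RNA in Cy3 and 0.62 and 0.56 with it in Cy5. The rise of Ambra1 (0.17 ± 0.05), a Beclin 1 regulator, was not called without replicate 1 (0.16), 2 (0.13) or 3 (0.18) or with the mean over probes (0.10). The 4 rises lost their calls with centring on the control spots, where they stood between 0.06 and 0.20. The gene that fell was Pik3r4, a subunit of the VPS34 lipid kinase complex (-0.18 ± 0.05; -0.19 to -0.14 without replicate 1, 2 or 3, not called). Map1lc3b, the LC3B gene, was at 0.01 ± 0.05 and the mitophagy gene Bnip3 at 0.06 ± 0.09, and neither was called. Of 36 lysosome genes 2 rose (5.56%) and 1 fell (2.78%), all by about 0.2. They were the cathepsin genes Ctsz (0.20 ± 0.05; 0.19 without replicate 1, 0.15 without 2 and 0.21 without 4, each not called) and Ctsc (0.20 ± 0.06; 0.14 without replicate 2 and 0.20 without 4, not called) and the lysosomal gene regulator Tfe3 (-0.18 ± 0.05; -0.13 without replicate 1 and -0.15 without 2, not called). The 3 other Tfe3 probes gave 0.01, 0.07 and 0.03, and the mean over its probes was -0.02 (adjusted p = 0.915). Of 32 genes of PI3K, insulin and mTOR feedback 3 rose (9.38%) and 1 fell (3.12%). Sesn1, Pik3ip1 and the receptor gene Erbb3 (0.33 ± 0.06, with 0.08 and 0.05 on its dimmer probes) were higher. Rheb, the GTPase that activates mTORC1, was lower (-0.27 ± 0.07; -0.24 without replicate 1 and -0.17 without 2, not called).

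Genes of glucose uptake, lipid synthesis and ribosome biogenesis were called lower more often than higher. All genes tested leaned the same way, with 5.41% lower and 3.39% higher. The lower share was 20.8% for glucose uptake and glycolysis, 20.8% for sterol and fatty acid synthesis and 17.8% for ribosome biogenesis. Antioxidant genes went the other way, with 8% higher. Of 24 genes of glucose uptake and glycolysis 5 fell and 0 rose, among them the hexokinase gene Hk2, which read -0.57, -0.62, -0.41 and -0.49 and fell by 0.52 ± 0.04 (adjusted p = 2.07e-07, limma), and the glucose transporter genes Slc2a3 (-0.34 ± 0.05) and Slc2a1 (-0.20 ± 0.04; -0.18 without replicate 1, not called). The 2 others were the glycolytic genes Pgam1 (-0.21 ± 0.05; -0.18 without replicate 1 and -0.17 without 2, not called) and Pfkp (-0.18 ± 0.05; -0.16 without replicate 3 and -0.13 without 4, not called). Of 24 genes of sterol and fatty acid synthesis 5 fell and 1 rose, led by the desaturase gene Scd2 (-0.38 ± 0.04), the squalene epoxidase gene Sqle (-0.40 ± 0.05) and Msmo1, a sterol oxidase (-0.43 ± 0.07). The mevalonate pathway gene Mvd (-0.19 ± 0.04) was not called without replicate 3 (-0.16), nor was Nsdhl (-0.16 ± 0.05) without any of the 4 (-0.19 to -0.14), or Acaca, the acetyl-CoA carboxylase gene that rose (0.17 ± 0.04), without replicate 1 (0.18) or 3 (0.13). The 10 other Acaca probes lay between -0.04 and 0.08, and the mean over its probes was 0.04 (adjusted p = 0.637). Ribosome biogenesis genes gave 8 lower and 1 higher of 45, all by 0.25 or less. Wdr12, an assembly factor of the large subunit, was at -0.24 ± 0.04, and the gene that rose was the dyskerin gene Dkc1 (0.20 ± 0.05; 0.16 without replicate 1 and 0.18 without 4, not called). Of 40 cytosolic ribosomal protein genes 2 fell (5%, against 5.41% of all genes) and 0 rose: Rpl14 (-0.15 ± 0.04; -0.14 without replicate 2, not called) and Rpl23 (-0.20 ± 0.06; -0.20 without replicate 1 and -0.10 without 2, not called). Antioxidant genes gave 2 higher and 0 lower of 25, the glutathione reductase gene Gsr (0.23 ± 0.04) and the catalase gene Cat (0.23 ± 0.04), and both lost their calls with centring on the control spots (0.12 for each).

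Most cell cycle and apoptosis genes were not called, and some of their shares lay near the 3.39% higher and 5.41% lower of all genes. Of 22 CDK inhibitor and G1 cyclin genes 2 fell (9.09%) and 1 rose (4.55%): Cdkn1a and Rbl1, the p107 pocket protein (-0.33 ± 0.04), were lower, and Cdkn2b (0.22 ± 0.06), read on a probe that was dim in the pool on 4 of 4 arrays, was not called without replicate 2 (0.14), 3 (0.24) or 4 (0.20). DNA replication genes gave 3 higher (7.32%) and 5 lower (12.2%) of 41, led by the ribonucleotide reductase subunit gene Rrm2 (-0.28 ± 0.04) and the polymerase genes Pold1 (-0.31 ± 0.06), Pole2 (-0.30 ± 0.05) and Pole (0.26 ± 0.05). The others were small, with Mcm10 at -0.17, Slbp at -0.18, Chaf1b at 0.21 and Mcm6 at 0.19, and each of these 4 calls was lost without replicate 2 (-0.15, -0.11, 0.16 and 0.16), Mcm10, Chaf1b and Mcm6 also without replicate 1 (-0.16, 0.22 and 0.19) and Chaf1b and Mcm6 without replicate 3 (0.22 and 0.16). The other Mcm10 probes gave 0.01 and 0.07, and the mean over its probes was -0.03 (adjusted p = 0.855). Genes of mitosis gave 4 higher and 4 lower of 41 (9.76% each), among them the centromeric histone gene Cenpa at 0.33 ± 0.04, the cyclin gene Ccnb2 at 0.26 ± 0.04, the kinase genes Aurka (-0.22 ± 0.04) and Bub1 (-0.20 ± 0.04), and the spindle midzone gene Prc1 at -0.23 ± 0.04, whose dimmer probe gave 0.11 and whose call the mean over probes ended (-0.06). Pttg1 (0.23), Nusap1 (0.17) and Top2a (-0.15) were not called without replicate 1 (0.25, 0.14 and -0.14), 3 (0.21, 0.16 and -0.13) or 4 (0.25, 0.15 and -0.13), nor Pttg1 without replicate 2 (0.21) or with the mean over probes (0.12). Among 26 apoptosis genes, the BCL2 family included, 1 rose (3.85%) and 3 fell (11.5%). Birc3, an inhibitor of apoptosis, rose by 0.52 ± 0.06, while Bbc3, the BH3-only gene Bid (-0.23 ± 0.04) and the anti-apoptotic gene Bcl2 (-0.29 ± 0.05) fell. The Bbc3 and Bcl2 calls were lost without the dye term (adjusted p = 0.062 and 0.146). Of 17 circadian clock genes Noct rose (5.88%) and 3 fell (17.6%), of which the repressor gene Bhlhe40 was at -0.35 ± 0.05. The falls of Dbp (-0.20 ± 0.05) and Arntl (-0.23 ± 0.06) were lost without replicate 1 (-0.17 and -0.24) or 4 (-0.20 and -0.21), and that of Arntl also without replicate 2 (-0.19).

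**Figure D3:**
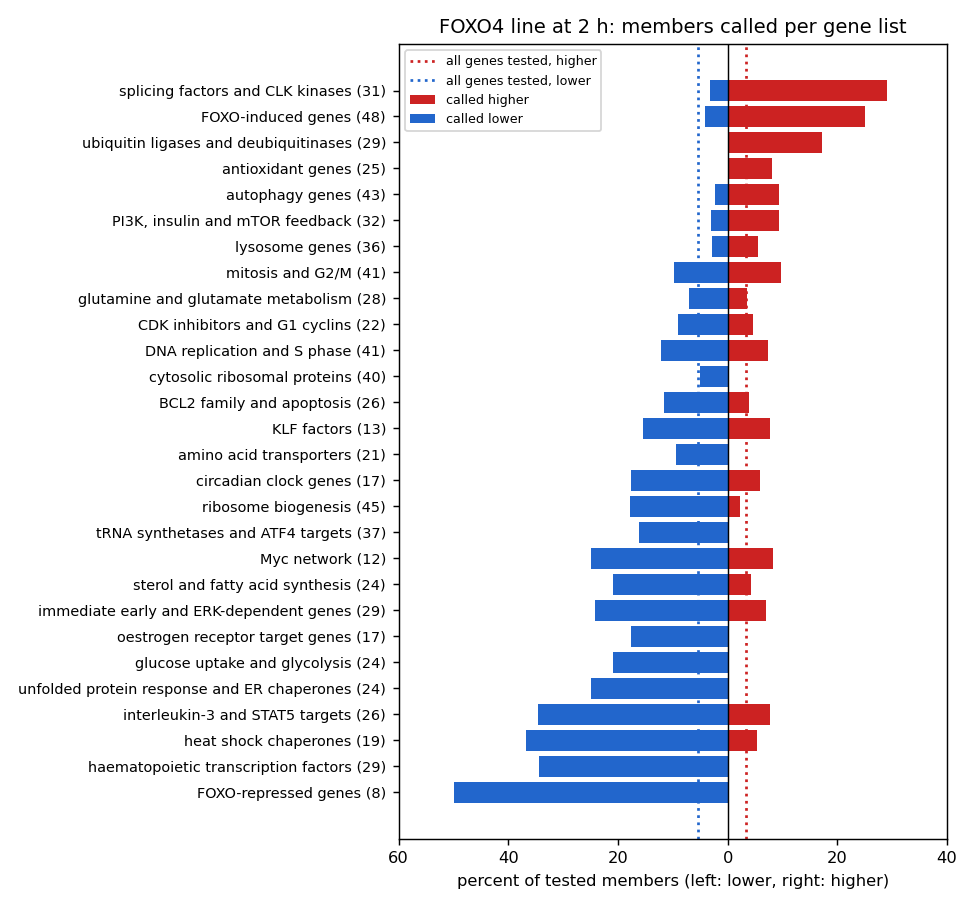
Bars give the percent of the tested members of each gene list that were called higher (red, to the right) or lower (blue, to the left) at 2 h, with the number tested in brackets. Dotted lines mark the same percentages over all 17484 genes (3.39% higher and 5.41% lower); the red bars are longest for splicing factors and FOXO-induced genes and the blue bars for FOXO-repressed genes, heat shock chaperones, IL-3 targets and haematopoietic factors.

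Calls of small changes also depended on the scaling. Of the rises named beside the 12 highest genes, those of Pik3ip1, Rnf4, Ctsz, Ctsc, Erbb3, Cdkn2b, Pole, Cenpa, Ccnb2, Dkc1, Acaca, Chaf1b, Mcm6, Nusap1, Pttg1, Hspb1, Dusp6, Spred1 and Marchf3 were also not called with centring on the control spots. They stood there between 0.06 and 0.22. Of the probes dim on 1 side of the ratio on 4 of 4 arrays, those of Cdkn2b, Erbb3, Fosl1, Klf10 and Neurl3 gave no fold above 1 by the bound used for Klf6.

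4-OHT also binds the cell's own oestrogen receptors, so 17 oestrogen receptor target genes were listed. Of these 3 fell (17.6%, against 5.41% of all genes) and 0 rose. They were Myb, the co-repressor gene Nrip1 (-0.37 ± 0.06) and Xbp1. In the FOXO3 line 2 of the 17 were called lower at 2 h, Myb at -0.88 and Xbp1 at -0.29, while Nrip1 stood at 0.01. The Nrip1 call in the FOXO4 line was lost without the dye term (adjusted p = 0.144). The part of 4-OHT in the results was not tested.

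Markers of the labelled cell type were only in part detected. Of 20 B-lineage genes 17 were dim in both channels on all 4 arrays, among them Cd79a, Pax5, Ebf1, Vpreb1 and Igll1, and the 3 others were Cd79b, Ptprc and Spib. The summed signal of the list above background was 1433 to 1880 in treated cells and 1314 to 1773 in the pool. Only Ptprc, the CD45 gene, was called (0.22 ± 0.06), and not without replicate 3 (0.13) or 4 (0.22). Of 19 markers of mast cells, basophils and myeloid cells 12 were dim throughout and 7 were not, among them Cpa3, Mcpt8, Lyz2 and Gata2. Their sum was 20110 to 32720 in treated cells and 19940 to 44930 in the pool, and Gata2 was the only one called. Of 14 markers of T, NK and erythroid cells 8 were dim throughout, and Klf1 and Tfrc, the transferrin receptor gene, fell; that list summed to at most 1880 in treated cells and at least 1956 in the pool. All these sums are of scanner intensities before normalization, with the dyes of treated cells and pool exchanged between arrays. Sums of treated cells and pool were not tested against each other. The part of a change in cell types in the falls of Gata2, Klf1 and Tfrc was not tested.

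FOXO factors bind DNA at the letters TGTTTAC, and these, or GTAAACA for the other strand, were searched for in RefSeq promoter windows of GRCm38.p6, from 250 bases before to 50 after a gene's start. Of 17333 windows of the genes tested 506 held the motif (2.92%), as did 27 of 596 windows of genes called higher (4.53%) and 23 of 1014 windows of genes called lower (2.27%). These shares are descriptions, since a gene can have several overlapping windows, and a match is not a binding site. Among the 12 highest genes 10 had a window and only P2ry14 held the motif, in 2 overlapping windows of its 4. Among the 12 lowest 8 had a window, and Myb and Pim1 held it. The letters of P2ry14 and, for contrast and chosen after its value was seen, of Pim1 are shown because the motif stands before 1 annotated start of a gene that rose and of one that fell. That placement depends on the start used. The other Pim1 window, at chr17:29490535-29490834, does not hold the motif. In the other P2ry14 window that holds it, the motif does not lie before the start. Both sequences shown are 250 bases up to 1 annotated start, 5′ to 3′ on the gene's strand, with the motif in capitals: P2ry14 at chr3:59131119-59131368 on the minus strand, where it begins 208 bases before that start, and Pim1 at chr17:29492835-29493084 on the plus strand, where it begins 70 bases before that start.
P2ry14: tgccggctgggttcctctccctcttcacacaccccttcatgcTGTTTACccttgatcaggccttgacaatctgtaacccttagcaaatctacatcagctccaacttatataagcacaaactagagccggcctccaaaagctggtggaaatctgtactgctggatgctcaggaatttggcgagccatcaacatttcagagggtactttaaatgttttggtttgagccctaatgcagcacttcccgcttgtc
Pim1: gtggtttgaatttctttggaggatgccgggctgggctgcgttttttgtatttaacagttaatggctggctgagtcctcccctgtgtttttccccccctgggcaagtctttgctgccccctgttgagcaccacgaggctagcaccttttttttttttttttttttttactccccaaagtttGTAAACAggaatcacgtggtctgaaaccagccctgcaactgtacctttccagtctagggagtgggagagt

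Compared with the FOXO3 line at 2 h, few differences passed the test. Across the 17484 genes the ratios of both lines correlated at 0.74 (Pearson; genes are not independent replicates), and the lines have separate arrays and separate pools. The FOXO3 line had 1364 called genes at 2 h (7.8%), 606 higher (3.47%) and 758 lower (4.34%). The difference was called for 6 genes (0.0343%), 3 higher (0.0172%) and 3 lower (0.0172%) in FOXO4 cells, against 961 at an unadjusted p under 0.05, and the number of arrays limits what could be called: the lines' differences are also those of 2 clones and 2 pools. Gata2 fell by 1.06 ± 0.05 in FOXO4 cells and by 0.47 in FOXO3 cells. Its arrays lay between -1.27 and -0.94 in the former and between -0.60 and -0.37 in the latter, without overlap, and the difference of -0.59 ± 0.07 (adjusted p = 0.0018, limma) was called under every alternative tried. Gfi1b differed by -0.36 ± 0.06 (adjusted p = 0.0187), from -1.52 in FOXO4 to -1.16 in FOXO3 cells. Tfrc, which imports iron, fell by 0.61 ± 0.05 in FOXO4 and by 0.17 in FOXO3 cells, a difference of -0.44 ± 0.07 (adjusted p = 0.0187).

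The other 3 differences were of stress genes that were lower in FOXO3 cells. Ddit4 (REDD1), a stress-induced inhibitor of mTORC1, read -0.15, -0.32, 0.03 and -0.02 in FOXO4 cells and was not called there (-0.12 ± 0.04, adjusted p = 0.136), while its arrays in FOXO3 cells were all between -0.78 and -0.75. The difference was 0.65 ± 0.06 (adjusted p = 0.000111, limma), which did not pass with centring on the control spots (0.57, adjusted p = 0.341). Atf4 stood at 0.09 ± 0.05 in FOXO4 and at -0.32 in FOXO3 cells (difference 0.41 ± 0.06, adjusted p = 0.0187), and Herpud1 at -0.29 and -0.63 (difference 0.34 ± 0.06, adjusted p = 0.0306). The differences of Atf4, Gfi1b, Tfrc and Herpud1 were lost without any of several single arrays, with values of 0.35 to 0.44 for Atf4 (without replicate 1, 2 or 3 of FOXO4 or 2, 3 or 4 of FOXO3), -0.36 to -0.32 for Gfi1b (without any array of FOXO4 or replicate 1 or 4 of FOXO3), -0.42 to -0.41 for Tfrc (without replicate 1 or 2 of FOXO4 or 3 or 4 of FOXO3) and 0.32 to 0.37 for Herpud1 (without any of the 8 arrays). These 4 differences were also lost with median centring, with centring on the control spots and without the dye term. Scale normalization between arrays brought that of Gfi1b to -0.17 (adjusted p = 0.747) and that of Tfrc to -0.40 (adjusted p = 0.0525), neither called.

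**Figure D4:**
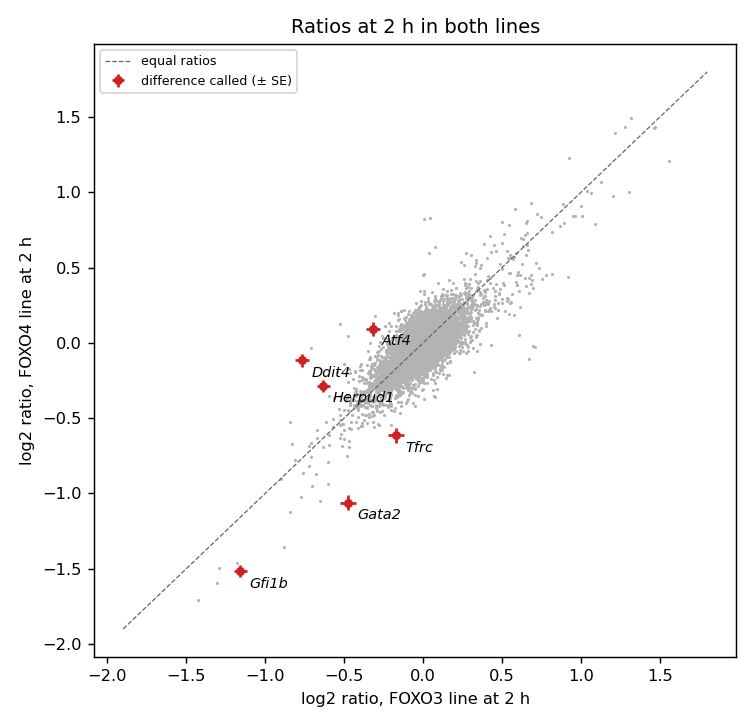
Each point is a gene, with its log2 ratio at 2 h in the FOXO3 line (x axis) and in the FOXO4 line (y axis); the dashed line marks equal ratios. The 6 genes whose difference was called are red with SE bars. Ddit4, Atf4 and Herpud1 lie above the dashed line and Gata2, Gfi1b and Tfrc below it. Some genes of large ratio lie near it, such as Cited2 (1.47 in FOXO3 and 1.44 in FOXO4 cells) and Noct (1.46 and 1.43). Others lie off it, among them Gata2, Gfi1b and Myb (-0.88 and -1.36), and the difference of Myb was not called.

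At 8 h the FOXO4 line had 3227 called genes (18.5%), 1697 higher (9.71%) and 1530 lower (8.75%). Both times share the pool, which cancels when 8 h is set against 2 h, and 1869 genes were called in that test (10.7%), 1179 higher (6.74%) and 690 lower (3.95%). Genes picked for an extreme ratio at 2 h tend by that choice alone to lie closer to 0 in a second measurement, so the direction of their differences is read only beside the values. Among the 12 highest Noct stood at 1.43 at 2 h and 2.87 at 8 h, a difference of 1.44 ± 0.10 (adjusted p = 1.91e-08, limma), and P2ry14 at 1.01 and 2.17. Cited2 (1.44 and 1.91) and Resf1 (1.00 and 1.49) were also higher at 8 h, and Klf6 (1.43 and 1.85) less firmly, since its difference was lost without replicate 1 (0.41), 2 (0.38) or 3 (0.28) of 2 h, or 1 (0.38), 3 (0.39) or 4 (0.40) of 8 h. The Cited2 difference was lost without replicate 1 (0.42) or 4 (0.43) of 2 h, and without replicate 1 (0.39) or 4 (0.46) of 8 h. Both genes lost the difference without the dye term, and Resf1 with scale normalization between arrays (0.44). Fbxo30, Rnf125, Ccm2 and Clk1 did not pass the test of a difference between the times. Cirbp had fallen back from 1.07 to 0.20, with arrays between -0.02 and 0.40 at 8 h, and Rnf19b (1.39 and 0.95) and Zranb1 (0.98 and 0.60) were lower at 8 h as well. With centring on the control spots the latter differences, -0.38 for Rnf19b and -0.31 for Zranb1, were not called (adjusted p = 0.0759 and 0.113).

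Most of the 12 lowest genes were closer to their starting level at 8 h. Ier3 read -1.26 to -0.88 at 2 h and -0.12 to 0.09 at 8 h, and its mean went from -1.12 to -0.01. Banp went from -1.70 to -0.45, Nfe2 from -1.50 to -0.31, Id1 from -1.60 to -0.67 and Gfi1b from -1.52 to -0.78. Mycn, Myb, Gata2 and Pim1 moved the same way, by 0.63, 0.53, 0.37 and 0.70. Cbfa2t3 went further down, from -1.05 to -1.40, a difference that was not called with centring on the control spots (-0.29, adjusted p = 0.135). Klf1 and Gypc did not pass the test of a difference. Outside these genes Myc stood at -0.66 at 2 h and 0.03 at 8 h, Cdkn1a at -0.79 and 0.01, and Xbp1 at -0.24 and 0.89.

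**Figure D5:**
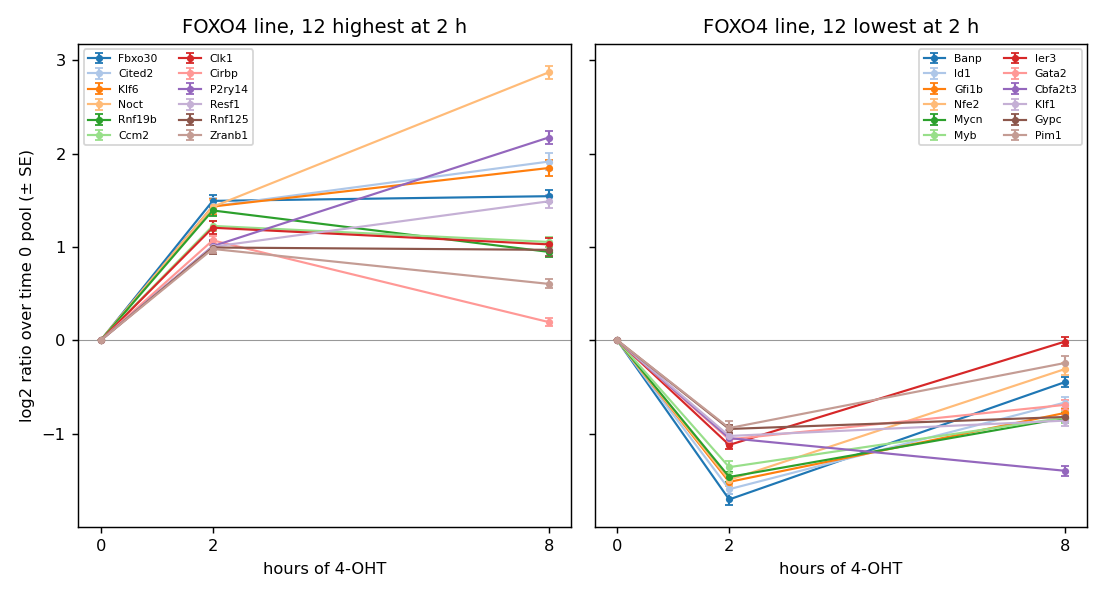
The log2 ratio over the time 0 pool (y axis, ± SE) is plotted at 2 and 8 h of 4-OHT (x axis; time 0 is 0 by definition) for the 12 genes of highest ratio at 2 h (left) and the 12 of lowest (right). Noct and P2ry14 climb to 2.87 and 2.17, Cirbp returns to 0.20, and 9 of the 12 lowest genes are nearer 0 at 8 h by a called difference, while Cbfa2t3 reaches -1.40.

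Beside Noct, the largest later rises among the genes called at 2 h were those of Neurl3, a ubiquitin ligase gene (0.26 at 2 h and 1.91 at 8 h), the osteopontin gene Spp1 (-0.30 and 1.08), Tspan8, a tetraspanin gene (0.79 and 2.13), and Lancl3 (0.84 and 2.16). The largest later falls were those of Gzmb, the granzyme B gene (-0.24 and -2.12), the tubulin gene Tuba8 (-0.32 and -1.68), Srsf6 (0.47 and -0.66), the sialyltransferase gene St6gal1 (0.27 and -0.77) and Hnrnpdl (0.79 and -0.25). Srsf6 and Hnrnpdl were above 0 on 4 of 4 arrays at 2 h and below 0 on 4 of 4 at 8 h. The 2 h calls of Neurl3, Spp1, Gzmb, Tuba8 and St6gal1 were each lost without at least 1 array: Neurl3 without replicate 2 (0.20), Spp1 without replicate 1 (-0.29), 2 (-0.23) or 3 (-0.30), Gzmb without 2 (-0.22) or 4 (-0.20), Tuba8 without 1 (-0.32), 2 (-0.25) or 3 (-0.29), and St6gal1 without 3 or 4 (0.21 and 0.22).

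Calls over all genes rose from 8.8% at 2 h to 18.5% at 8 h, and several lists also held more. Over all genes 3.39% were higher and 5.41% lower at 2 h, and 9.71% higher and 8.75% lower at 8 h. In the test between the times 6.74% of all genes were higher at 8 h and 3.95% lower. The lists given here were picked after their counts were seen, and others held as many at both times, such as the oestrogen receptor targets (3 and 3). Both times share the pool, so the counts are given side by side. Of 43 autophagy genes 4 were higher at 2 h and 24 at 8 h, and 13 were higher at 8 h than at 2 h against 0 lower. Map1lc3b stood at 0.01 and 0.79 (difference 0.78, adjusted p = 1.03e-06, limma) and Bnip3 at 0.06 and 0.76. Of 36 lysosome genes 2 were higher at 2 h and 14 at 8 h, with 13 higher at 8 h than at 2 h and 1 lower. Of 48 FOXO-induced genes 12 were higher at 2 h and 25 at 8 h, with 21 against 0 in the test between the times; Bcl2l11 stood at 0.10 and 0.41. Glul stood at -0.01 and 0.38, a difference of 0.39 ± 0.07 (adjusted p = 0.00082). In the other direction 5 of 41 DNA replication genes were lower at 2 h and 30 at 8 h, with 19 lower and 0 higher between the times. Splicing genes had 9 of 31 higher at 2 h and 8 higher and 9 lower at 8 h, and 6 were lower at 8 h than at 2 h against 1 higher.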

How the data were processed

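Per the file headers, the scanner files hold mean spot intensity of both channels, from which the local background has not been taken off. Normalized intensities of each dye were deposited by the authors too, with a table of log2 ratios. The sources used here do not give how these were normalized, the scanner or the array build. Channel 1 was taken as Cy5, since its log ratio over channel 2 correlated above 0 with the deposited Cy5 over Cy3 ratio on 16 of 16 arrays (r of 0.12 to 0.55). Amplification used a T7 primer, with external control RNA added at that step, per the labels' protocols.

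Scanner intensities were corrected with normexp (offset 50) and loess within arrays in limma 3.58.1 (R 4.3.3), with control spots at weight 0 and nothing between arrays, and ratios were turned to treated over time 0. Of 31769 gene probes, 942 that exceeded the local background by 2 background SDs on fewer than 4 of the 16 arrays were left out. The platform annotation named 26000 probes, with symbols updated through the RefSeq table of GRCm38.p6, and the brightest probe stood for a gene (4662 genes had several). All 16 arrays entered 1 fit (lmFit, eBayes) with a mean for each of 4 groups and a dye term for each gene. Estimated from all 16 arrays, that term had an SD of 0.212 over genes. Where 1 side of a ratio was dim on 4 of 4 arrays, a bound was set from log2 signals per channel after loess and Aquantile, with that side no lower than the 95th percentile of silent control spots. The fit was also run on simulated data with known changes, whose noise and dye term came from the real fit. The arrays' number limits precision: the median SE of a ratio was 0.0501. The scanner files' columns give no slide or scan date, and no gene spot had an identical ratio on any pair of the 4 arrays.

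The 4 arrays were taken by their label alone, with earlier results of these data known. The 31 gene lists and the tests were also chosen with those results known. Genes named were the 12 highest and 12 lowest with the same sign on 4 of 4 arrays (clone and predicted names left out), up to 4 members of smallest adjusted p per list (all called members where 4 or fewer were), a set of FOXO, glutamine and autophagy genes, the genes that differed from the FOXO3 line, and the 5 highest and 5 lowest of 8 h minus 2 h among those called at 2 h. Another 20 genes were named after their values were seen. Alternatives changed the background correction, normalization, centring, filter, probe choice, dye term, samples fitted and values used. Lists are described by counts and medians, with no test.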

Additional observations from a re-analysis of the deposited data

Results flagged for a closer look

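On single arrays 4 of 165 named genes had 1 replicate of the 4 apart from the rest by a gap rule. That rule flags about 1 in 20 where 4 values differ by chance alone. The ratios used still held the dye effect, which splits the arrays by orientation, so the count cannot be read against that rate. Pim1 read -1.13 and Ptprc 0.52 on replicate 3, Tal1 read -0.38 on replicate 3, and Lancl3 read 0.45 on replicate 1.

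The ratio at 2 h differed between the FOXO4 and the FOXO3 line for 6 genes by limma's test of the difference. FOXO4 minus FOXO3 was 0.65 for Ddit4, -0.59 for Gata2, 0.41 for Atf4, -0.36 for Gfi1b, -0.44 for Tfrc and 0.34 for Herpud1. The Tfrc transcript, lower at 2 h, stood at 0.43 at 8 h in the FOXO4 line.

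Between 2 h and 8 h of the FOXO4 line limma's test of the difference passed for 18 of the 24 genes of highest and lowest ratio. The 8 h minus 2 h difference was 0.48 for Cited2, 0.41 for Klf6, 1.44 for Noct, -0.44 for Rnf19b, -0.88 for Cirbp, 1.16 for P2ry14, 0.49 for Resf1 and -0.37 for Zranb1. Among the lowest genes it was 1.26 for Banp, 0.93 for Id1, 0.74 for Gfi1b, 1.19 for Nfe2, 0.63 for Mycn, 0.53 for Myb, 1.11 for Ier3, 0.37 for Gata2, -0.35 for Cbfa2t3 and 0.70 for Pim1. Of the other genes called at 2 h the largest differences were 1.64 for Neurl3, 1.38 for Spp1, 1.34 for Tspan8, 1.32 for Lancl3, -1.88 for Gzmb, -1.36 for Tuba8, -1.13 for Srsf6, -1.04 for St6gal1 and -1.04 for Hnrnpdl.

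Of 5530 probes without a gene symbol, which the comparisons above leave out, 180 were called at 2 h, 101 higher and 79 lower, with ratios from -1.06 to 1.30.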

How the results depend on the processing

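No gene named here changed sign under any alternative where it was called, and of the 129 named genes called at 2 h 58 kept the call under each of the 16 alternatives that measured them, dye orientation subsets not counted. Calls of single genes among them were lost for 56 without the dye term, 45 with the 4 arrays alone, 33 with median centring, 30 with control centring, 13 with scale normalization and 12 with the mean over probes. The 1538 calls at 2 h (592 higher, 946 lower) numbered 1009 with median centring (322 higher), 480 without the dye term (177 and 303), 724 with the 4 arrays alone (273 and 451), and 1015 to 1360 without 1 replicate (395 to 517 and 598 to 851). Subsets of the 4 arrays by dye orientation were chosen after seeing the data. Fitted with the arrays of the other groups, they gave 589 calls from Cy3 (231 and 358) and 995 from Cy5 (553 lower). Centring on the control spots gave 110 higher, with 1094 lower. The 6 line differences became 2 with median centring, 1 with control centring, 10 with the deposited values, 2 without the dye term and 2 to 5 without 1 replicate. The 1869 calls of 8 h minus 2 h (1179 higher, 690 lower) became 840 with control centring (726 and 114), 601 without the dye term (425 and 176) and 1442 to 1819 without 1 replicate (947 to 1158 and 493 to 661), and the lower ones 257 with median centring. The 140 list members called became 68 without the dye term, 86 with the 4 arrays alone, 68 from Cy3 and 105 to 126 without 1 replicate. Fewer arrays or an unmodelled dye effect enter some of these fits by construction; otherwise the cause was not tested.

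Whether a replicate number marks 1 culture at both times is not stated. Deviations of same-numbered arrays of 2 h and 8 h correlated at -0.01 to 0.08, and those of differently numbered arrays at -0.13 to 0.16. Correlations across genes cannot settle whether cultures were shared. With the replicate number as a block, 1403 genes were called at 2 h (527 higher, 876 lower), 1726 for 8 h minus 2 h and 3 for the line difference. Ratios against 1 pool leave out the spread of time 0 cultures, and dim probes have little signal over background to show a change.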
